A study of Mus musculus with 9 samples.

Results

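The genes of the endoplasmic reticulum (ER) folding machinery and of the unfolded protein response were followed across 9 RNA sequencing libraries of cultured mouse cells. The set holds 33 genes of the 47729 in the count table, picked by symbol, and all 33 passed the filter on low counts that left 15696 genes for testing. The list was drawn up with earlier results of these libraries known, and Pdia4 and Hyou1 were singled out because culture NF1 2 was highest for them. Their levels in that culture are therefore given as a description, and counts over the set support nothing by themselves.

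All cultures come from the subventricular zone, a stem cell niche of the brain, and were kept under standard neural stem cell conditions for at most 10 passages. NSC cultures 1, 3 and 5 are wild-type primary neural stem cells. LTR cultures 1, 2 and 3 are tumour cells derived from neural stem cells and carry the genotype label lgT/Ras. NF1 cultures 1, 2 and 3 are tumour cells of the same origin with the genotype label shp53, Nf1-/-, CDK4, where shp53 names a hairpin against p53. The submitters call the 3 cultures of a group independent but speak of each tumour type as a line, and the sources used here do not say whether each culture was transformed separately. P-values then measure only the spread between these cultures. Levels are CPM, counts relative to the library's total after scaling with the trimmed mean of M values (TMM), given as mean ± SD over the 3 cultures of a group. Fold changes are on the log2 scale ± SE. Adjusted p-values come from the edgeR quasi-likelihood test over all 15696 genes, and a gene was called at an adjusted p under 0.05.

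Total counts per library ran from 28600479 (LTR 2) to 57231024 (NSC 3). Trp53 measured 101 to 114 CPM in NSC and 151 to 221 CPM in the cultures whose label names shp53, so the transcript was not lower there and these are called the cultures labelled NF1. Cdk4 in NF1 2 was 393 CPM, inside the NSC range of 325 to 456, against 795 in NF1 1 and 1124 in NF1 3. Nf1, the gene labelled -/- there, was at 59.0, 97.2 and 40.1 CPM in NF1 1, 2 and 3. It was at 82.5 to 114.0 CPM in NSC and at 40.3 to 80.0 CPM in LTR, so NF1 2 lay in the NSC range. The difference of the NF1 group was -0.64 from NSC (adjusted p = 0.205) and 0.14 from LTR (adjusted p = 0.928). Counts per gene do not show which part of the gene is deleted. Across all tested genes the lowest correlation of log CPM within NF1 was 0.911, between NF1 2 and NF1 3, against 0.953 within NSC and 0.963 within LTR. NSC 1 and NSC 5 were close to each other, at 0.991, while NSC 3 reached at most 0.958 with either. The estimate of spread behind the p-values draws in part on this close pair. The highest correlation with an NSC library was 0.892 for NF1 2, 0.84 for NF1 1 and 0.815 for NF1 3. Per the file headers, the NSC libraries carry 1 lane number and the tumour libraries a different one, and lane and cell type cannot be told apart in comparisons with NSC. Among neural stem cell markers, Nes was at 1378 to 1571 CPM in the NSC libraries and 426.4 to 2433 CPM in the 6 tumour libraries, and Sox2 was at 307.1 to 357.6 and 178.5 to 331.0 CPM. Fabp7 was at 2364 to 4295 CPM in the NSC libraries, 343.1 CPM in NF1 2 and 1.57 to 11.6 CPM in the other 5 tumour libraries. Slc1a3 was at 660.0 to 920.5 CPM in the NSC libraries and at or under 4.77 CPM in the tumour libraries. Vim, on the same list of 10 markers, was at 10040 to 10710 CPM in NF1, above the NSC libraries but not called (adjusted p = 0.173). It was at 6135 to 7443 CPM in NSC and 6073 to 11410 CPM in LTR. The other markers of that list are not given here.

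Secreted and membrane proteins enter the ER through a translocon, receive sugar chains and disulfide bonds, and fold with the help of chaperones. Chains that stay misfolded are drawn back out and degraded. When misfolded chains accumulate, the membrane sensors encoded by Atf6, Ern1 and Eif2ak3 raise the transcription of chaperone, degradation and export genes. Neural stem cells and glioma cells export matrix and signalling proteins through this route.

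In the cultures labelled NF1, main chaperones and several folding helpers rose over NSC. Of the 33 genes, 10 were called higher and 0 lower, where 10.1% of all tested genes were called higher and 13.1% lower (23.1% in all). The 10 were Hspa5, Hsp90b1, Sdf2l1, Manf, Creld2, Pdia3, Pdia6, Xbp1, Ddit3 and Derl2. DESeq2 called 14 higher and 0 lower, where it called 10.2% of all genes higher and 14.7% lower. The median log2 fold change was 0.81 over the 33 and 0.0039 over all genes. In LTR, 3 rose (Hsp90b1, Sdf2l1 and Ern1) and 3 fell (Dnajc3, Sec24d and Canx), where 14.9% of all tested genes were called higher and 20.9% lower (35.9% in all). The median there was 0.14 over the 33 and -0.06 over all genes. Both comparisons share the same 3 NSC libraries.

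These counts depended on single libraries. The 10 became 4 when NSC 1 or NSC 5 was left out, where 3.72% and 4.1% of all genes were called higher, and 16 when LTR 2 was, where 11.5% were. Without NF1 2 there were 11 higher and 2 lower (Canx and Sec24d), where 17.7% of all genes were called higher and 24.5% lower, and the median was 0.53. In LTR the higher genes numbered 0 when NSC 1 was left out, 1 when NSC 5 was, and 5 when NF1 2 was, where 6.7%, 7.35% and 20% of all genes were. The lower ones numbered 1 without LTR 2 or LTR 3 and 5 without NF1 2, where 14.2%, 11.9% and 26.7% of all genes were.

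**Figure D1:**
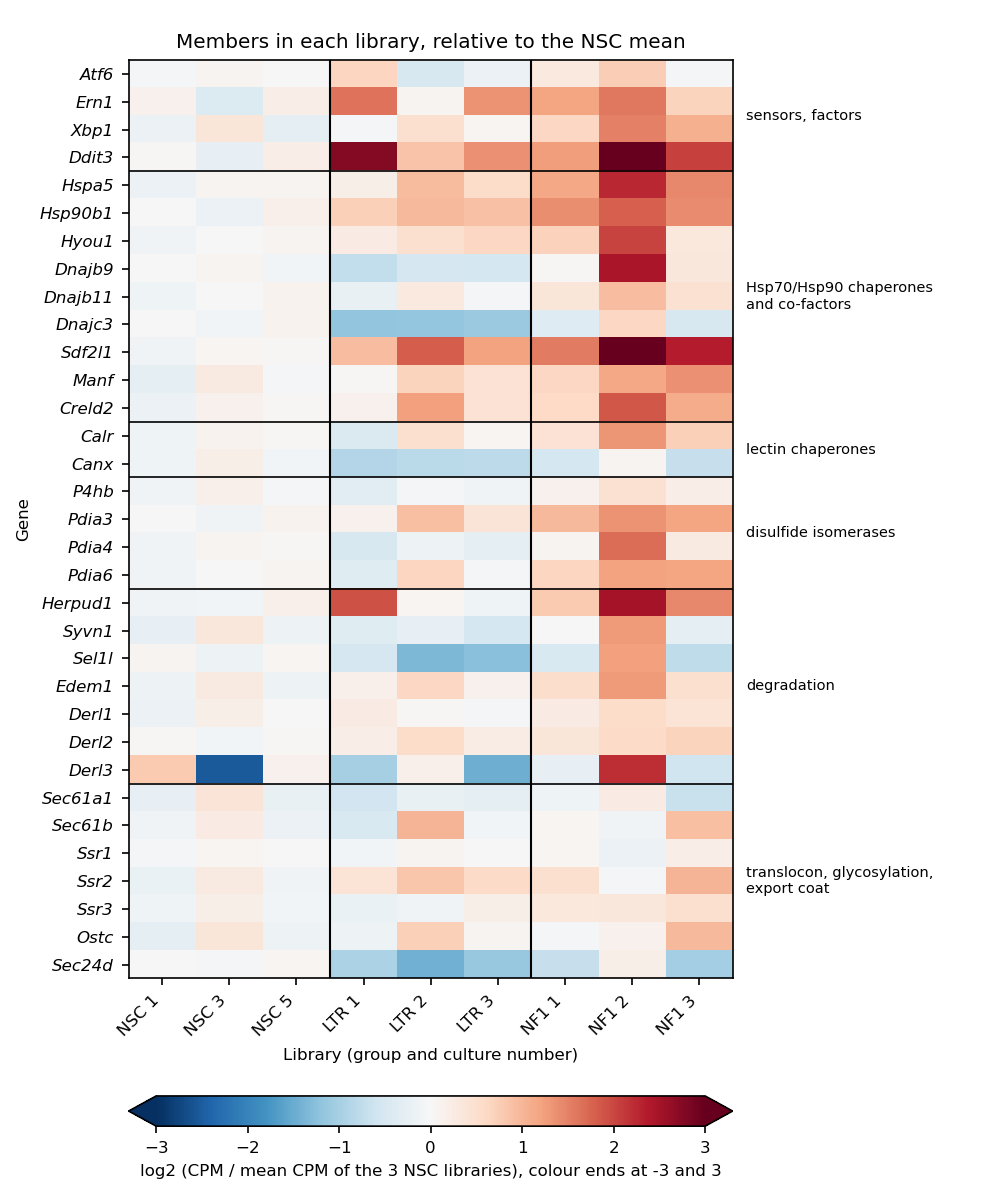
Colour shows log2 of the CPM of each of the 33 genes (rows, grouped by role) in each of the 9 libraries (columns) over the mean of the 3 NSC libraries. Column NF1 2 is the reddest for most chaperone and degradation genes, with a median of 1.24 over the 33 genes against 0.361 in NF1 1 and 0.483 in NF1 3. The Derl3 row rests on under 2 CPM in every library.

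The promoters of these genes were read for the elements through which the response is known to act. The ER stress element, which the freed Atf6 factor binds together with the CCAAT-binding factor NF-Y, was searched on both strands as CCAAT and CCACG with 9 bases between them. Windows of 250 bases before to 50 bases after the RefSeq start (GRCm38.p6) were held for 26 of the 33 genes, and not for Atf6, Hyou1, Manf, Derl1, Sec61a1, Ssr2 and Ostc. The element was in 9 of these 26 (34.6%), against 37 of 27025 genes with a window (0.137%) and 1 of 101 other ER genes (0.99%, Ero1b). The 37 include these 9. The 33 genes were chosen as genes of this response, so the shares are a description. The second form, searched as ATTGG and CCACG with 1 base between them, was in Herpud1 and Dnajb11, 7.69% of the 26 and 0.0444% of all genes. The windows printed here belong to the genes called in a comparison, with Herpud1 for the second form, and capitals mark the fixed letters of the element. All are written 5′ to 3′ along the gene.
Hspa5 (chr2:34772020-34772048, + strand): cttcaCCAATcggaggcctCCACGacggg
Hsp90b1, upstream match (chr10:86705618-86705676, - strand): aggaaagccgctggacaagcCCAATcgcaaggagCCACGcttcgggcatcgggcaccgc
Hsp90b1, downstream match (chr10:86705513-86705571, - strand): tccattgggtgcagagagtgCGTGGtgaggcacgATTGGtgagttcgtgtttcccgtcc
Creld2 (chr15:88819500-88819558, + strand): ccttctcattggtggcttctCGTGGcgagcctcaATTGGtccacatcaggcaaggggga
Pdia6 (chr12:17266471-17266529, + strand): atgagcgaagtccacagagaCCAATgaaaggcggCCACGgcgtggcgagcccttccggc
Canx (chr11:50325780-50325838, - strand): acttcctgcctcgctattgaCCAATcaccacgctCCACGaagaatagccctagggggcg
Dnajc3 (chr14:118937807-118937865, + strand): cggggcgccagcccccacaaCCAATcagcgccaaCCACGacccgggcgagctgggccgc
Herpud1, second form (chr8:94386357-94386407, + strand): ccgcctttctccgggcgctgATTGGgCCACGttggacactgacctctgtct

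In Hsp90b1 the downstream match, and in Creld2 the only one, is on the opposite strand, so it reads CGTGG before ATTGG. The Hspa5 match starts 65 bases before the RefSeq start and lies inside an exon that GENCODE M21 begins farther upstream. The other windows printed meet no annotated exon.

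**Figure D2:**
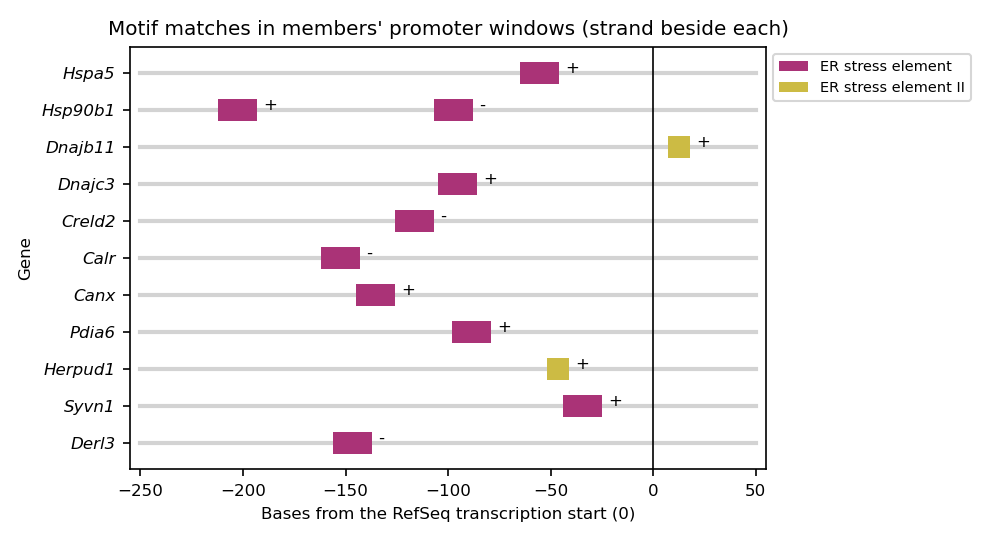
Bars mark matches to the ER stress element (purple) and its second form (yellow) from 250 bases before to 50 bases after the RefSeq start of 11 genes, with the strand beside each bar. Matches lie between 212 bases before and 17 bases after the start, and Hsp90b1 has a pair of them.

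The stress sensors and transcription factors were at low to moderate levels. Ern1 (ENSMUSG00000020715) encodes the sensor that splices Xbp1 mRNA. It measured 12.6, 8.75 and 13.3 CPM in NSC 1, 3 and 5, 35.5, 12.25 and 29.2 in LTR 1 to 3, and 26.4, 34.45 and 18.2 in NF1 1 to 3. LTR 2 lay within the NSC range, while all 3 NF1 libraries lay above it. The rise in LTR was 1.152 ± 0.40 (adjusted p = 0.0497), and the difference in NF1 was 1.19 ± 0.40 (adjusted p = 0.0589), or 0.96 when NF1 2 was left out (adjusted p = 0.0853). The LTR call was lost without NSC 1, NSC 3, NSC 5, LTR 1, LTR 3 or NF1 1. It was also lost with scaling to library totals and with the replicate block, which adds the culture numbers to the model. Adjusted p ran from 0.0104 to 0.156 over the alternatives. Atf6, which encodes the sensor cut in the Golgi to free a transcription factor, measured 46.4 ± 2.1 CPM in NSC, 48.6 ± 20.7 in LTR and 59.5 ± 17.0 in NF1 (adjusted p = 0.877 and 0.419). Its NF1 difference was 0.36, and 0.13 without NF1 2.

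Xbp1 (ENSMUSG00000020484, chr11:5520659-5525893, GRCm38) encodes the transcription factor made from the spliced mRNA. Its level was 37.2, 54.0 and 34.2 CPM in NSC 1, 3 and 5 and 40.3, 58.0 and 43.7 in LTR 1 to 3. In NF1 1, 2 and 3 it was 64.8, 118.8 and 88.2, above all 6 other libraries. The rise over NSC was 1.12 ± 0.28 (adjusted p = 0.0211), or 0.88 when NF1 2 was left out (adjusted p = 0.0233). The call was lost when NSC 1 or NSC 5 was left out and with the replicate block, with values from 0.00669 to 0.0885 over the alternatives. Counts per gene do not separate spliced from unspliced Xbp1.

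Ddit3 (ENSMUSG00000025408) encodes CHOP, a transcription factor of the arm that runs through Eif2ak3 and Atf4 and is known for promoting cell death under lasting stress. It was at 5.14, 4.21 and 5.74 CPM in NSC 1, 3 and 5. In LTR 1, 2 and 3 it was at 33.8, 9.04 and 12.9, and in NF1 1, 2 and 3 at 11.97, 124.0 and 20.9. Every tumour library lay above every NSC library, and NF1 2 was 7.55 times the mean of NF1 1 and NF1 3. The rise in NF1 was 3.38 ± 0.87 (adjusted p = 0.0233), or 1.72 when NF1 2 was left out (adjusted p = 0.0229). The call was lost without any single NSC library and with the replicate block (adjusted p up to 0.168 over the alternatives). In LTR the difference was 1.89 ± 0.82 (adjusted p = 0.0991), and it was called without NF1 2 (adjusted p = 0.00957) and by DESeq2 (0.0329). Of its exon bases 10.9% overlap other annotated genes, Mars among them, so its counts are uncertain to that extent.

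Hspa5 (ENSMUSG00000026864, chr2:34771970-34777547) encodes BiP, the Hsp70 of the ER lumen that binds nascent chains and holds the sensors inactive. Its level was 691, 827 and 824 CPM in NSC 1, 3 and 5. It was 878, 1497 and 1150 in LTR 1 to 3, and 1734, 3771 and 2117 in NF1 1 to 3. The 3 groups did not overlap. The rise in NF1 was 1.70 ± 0.33, or 3.25-fold (adjusted p = 0.00784). It was 1.31 without NF1 2 (adjusted p = 0.00328), and it was called in all 14 alternatives. In LTR the difference was 0.59 ± 0.32 (adjusted p = 0.179).

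Hsp90b1 (ENSMUSG00000020048, chr10:86690209-86705509) encodes the ER Hsp90, which matures integrins and receptors. NSC 1, 3 and 5 had 779, 702 and 881 CPM, LTR 1 to 3 had 1299, 1537 and 1448, and NF1 1 to 3 had 2081, 2715 and 2120. Again the 3 groups did not overlap. The rise was 1.55 ± 0.21 in NF1 (adjusted p = 0.0022), called in all 14 alternatives, and 0.86 ± 0.21 in LTR (adjusted p = 0.0134). The LTR call was lost without NSC 1 and held in the other 8 omissions. It was also lost with the replicate block, and adjusted p was 0.000254 to 0.0861 over the alternatives. Of its exon bases 15.7% overlap other annotated genes.

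Sdf2l1 (ENSMUSG00000022769, chr16:17130138-17132383), a partner of the luminal DnaJ proteins, changed by the largest fold of the chaperone group in both comparisons. It measured 14.1, 15.8 and 15.6 CPM in NSC 1, 3 and 5, 28.9, 53.5 and 35.1 in LTR 1 to 3, and 44.8, 141.7 and 77.9 in NF1 1 to 3. All tumour libraries lay above NSC, and LTR 2 lay above NF1 1. It rose by 2.54 ± 0.41 in NF1 (5.82-fold, adjusted p = 0.00373) and by 1.37 ± 0.39 in LTR (adjusted p = 0.0246). Without NF1 2 the NF1 rise was 2.03 (adjusted p = 0.00102), and it was called in all 14 alternatives. The LTR call was lost without NSC 1, NSC 5 or LTR 2, with adjusted p from 0.00356 to 0.081.

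Manf, a small secreted ER protein that binds BiP, was at 180.0 ± 33.1 CPM in NSC and 380.4 ± 96.4 in NF1, a rise of 1.08 ± 0.26 (adjusted p = 0.018). Creld2, a stress-induced folding factor, went from 43.35 ± 4.35 to 105.5 ± 47.1 CPM, a rise of 1.28 ± 0.37 (adjusted p = 0.0335). Both were called without NF1 2, at 1.05 and 0.89 (adjusted p = 0.0147 and 0.0458). Both calls were lost without NSC 1, NSC 5 or NF1 3 and with the replicate block. Adjusted p was up to 0.0794 for Manf and 0.114 for Creld2. In LTR they measured 237 ± 50.9 and 69.3 ± 29.2 CPM (adjusted p = 0.25 and 0.168).

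Dnajc3 (ENSMUSG00000022136, chr14:118937976-118981697), a DnaJ co-chaperone of BiP, took the opposite direction in LTR. Its level was 169, 161 and 182 CPM in NSC 1, 3 and 5 and 74.6, 76.6 and 78.7 in LTR 1 to 3. NF1 1, 2 and 3 had 131.5, 260.7 and 121.8, so NF1 2 was the highest library and the other NF1 libraries lay between the LTR and NSC ranges. The fall in LTR was -1.16 ± 0.28 (adjusted p = 0.0125), and it was called in all 14 alternatives. In NF1 the difference was 0.0055 ± 0.27 (adjusted p = 0.991), or -0.42 when NF1 2 was left out (adjusted p = 0.0577).

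Dnajb9, another DnaJ co-chaperone of BiP, was at 34.5, 36.8 and 32.6 CPM in NSC 1, 3 and 5. LTR 1 to 3 had 20.8, 24.3 and 24.0, and NF1 1 to 3 had 35.7, 188.1 and 44.0. All LTR libraries lay below NSC, and NF1 2 was 5.43 times the NSC mean. The differences were -0.59 ± 0.54 in LTR (adjusted p = 0.411, and 0.0203 without NF1 2) and 1.37 ± 0.54 in NF1 (adjusted p = 0.0963). Without NF1 2 the NF1 difference was 0.21 (adjusted p = 0.39). Dnajb11, the DnaJ partner of BiP on unfolded chains, measured 122.9 ± 10.4 CPM in NSC and 187.1 ± 41.6 in NF1 (0.61 ± 0.21, adjusted p = 0.0652), or 0.42 when NF1 2 was left out (adjusted p = 0.102). Hyou1, the large Hsp70 that recharges BiP with nucleotide, was at 165.6, 181.2 and 190.2 CPM in NSC 1, 3 and 5 and at 212.6, 249.1 and 273.8 in LTR 1 to 3. The LTR difference was 0.45 ± 0.39 (adjusted p = 0.379), or 0.46 when NF1 2 was left out (adjusted p = 0.054). NF1 1, 2 and 3 had 287.6, 732.7 and 224.7 CPM.

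**Figure D3:**
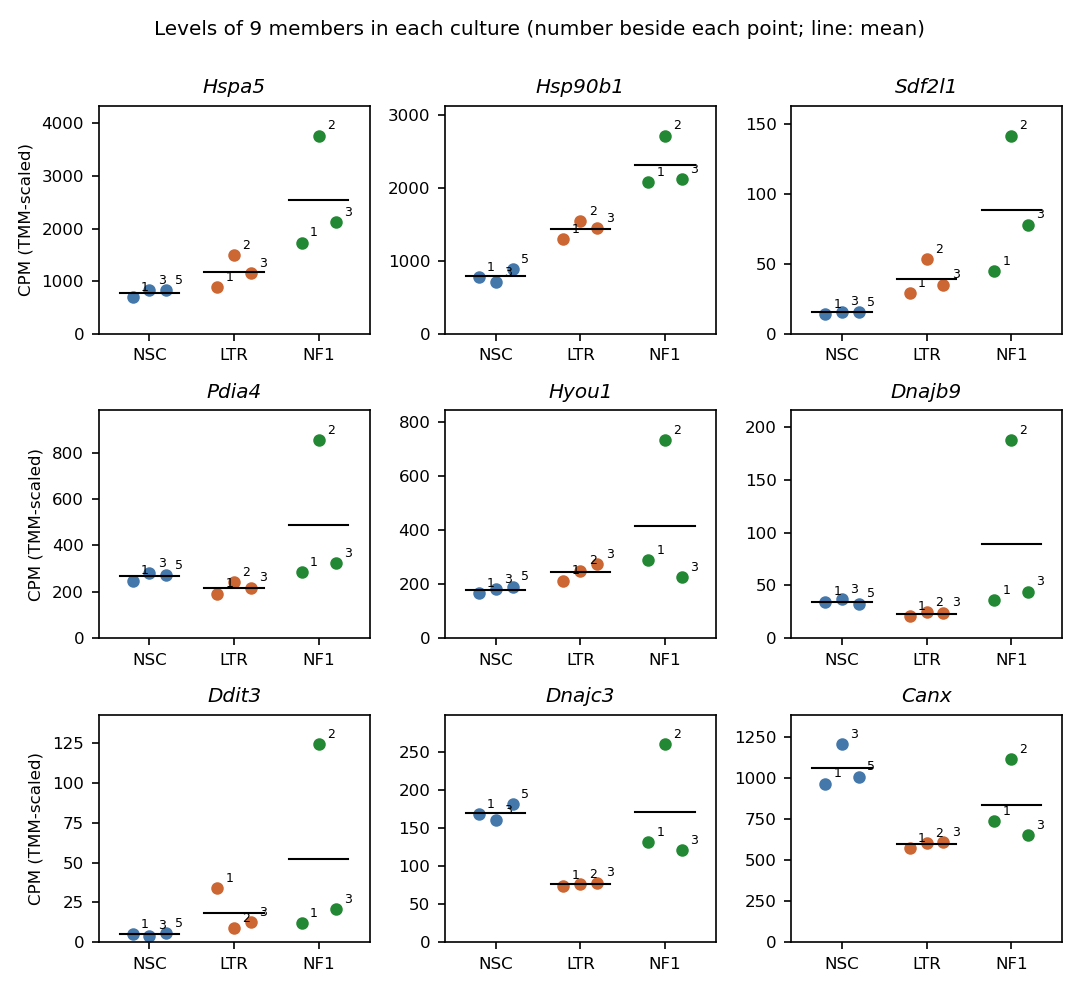
Points are the TMM-scaled CPM of 9 genes in each culture, with the culture number beside each point and a line at the mean of the 3 cultures of a group. For Hspa5 and Hsp90b1 the 3 groups are stacked without overlap. For Pdia4, Hyou1, Dnajb9 and Ddit3, culture NF1 2 stands alone above all others. For Dnajc3 and Canx the 3 LTR cultures lie close together below all NSC cultures.

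The lectin chaperones hold glycoproteins that are still folding. Of this pair, 1 fell in LTR, where 20.9% of all tested genes were called lower. Calr, the soluble one, was at 865, 1017 and 966 CPM in NSC 1, 3 and 5, 700, 1318 and 987 in LTR 1 to 3, and 1288, 2387 and 1562 in NF1 1 to 3. NF1 lay above NSC in all 3 libraries, and LTR spanned the NSC range. The NF1 difference was 0.88 ± 0.30 (adjusted p = 0.0634), or 0.60 when NF1 2 was left out (adjusted p = 0.101). Canx (ENSMUSG00000020368, chr11:50293961-50325673), the membrane-bound one, had 967, 1206 and 1009 CPM in NSC 1, 3 and 5 and 575, 603 and 611 in LTR 1 to 3. NF1 1, 2 and 3 had 738, 1117 and 653. The fall in LTR was -0.83 ± 0.24 (adjusted p = 0.0241). This call was lost without any single NSC or LTR library and with the replicate block (adjusted p up to 0.0929). The NF1 difference was -0.34 ± 0.24 (adjusted p = 0.311). Leaving out NF1 2 gave -0.60 (adjusted p = 0.0349).

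The protein disulfide isomerases form and rearrange disulfide bonds. Of these 4 genes, 2 rose in NF1, where 10.1% of all tested genes were called higher. Pdia3, which works with the lectin chaperones, was at 771, 715 and 830 CPM in NSC 1, 3 and 5 and 846, 1454 and 1008 in LTR 1 to 3. NF1 1, 2 and 3 had 1521, 1961 and 1760, above all other libraries. The rise was 1.18 ± 0.25 (adjusted p = 0.0102), or 1.10 when NF1 2 was left out (adjusted p = 0.00718). The call was lost with the replicate block (adjusted p = 0.0671). Pdia6 rose from 309 ± 20.9 CPM in NSC to 629.5 ± 127 in NF1 (1.03 ± 0.28, adjusted p = 0.0291). Its call was lost without NSC 1, NSC 5 or NF1 3 and with the replicate block (adjusted p up to 0.105). P4hb, the most studied member, measured 701 ± 67.1 CPM in NSC, 628 ± 65.2 in LTR and 845 ± 107 in NF1 (adjusted p = 0.537 and 0.33).

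Pdia4 (ENSMUSG00000025823, chr6:47796141-47813430) was at 247.8, 279.4 and 270.8 CPM in NSC 1, 3 and 5. LTR 1 to 3 had 191.9, 241.2 and 217.9, and NF1 1 to 3 had 283.6, 854.8 and 323.1. The LTR libraries all lay below NSC and the NF1 libraries all above it, with NF1 1 only slightly higher than NSC 3. NF1 2 had 3.21 times the NSC mean, whereas the mean of NF1 1 and NF1 3 had 1.14 times. The LTR difference was -0.29 ± 0.38 (adjusted p = 0.561).

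ER-associated degradation exports misfolded chains to the proteasome. Of its 7 genes, 1 rose in NF1, where 10.1% of all tested genes were called higher. Derl2, a channel component, was at 59.7 ± 2.5 CPM in NSC and 87.2 ± 9.63 in NF1 (0.55 ± 0.17, adjusted p = 0.0476). That call was lost in 12 of the 14 alternatives and held without LTR 2 and without NF1 2. Herpud1, a membrane scaffold of the degradation complex, was at 19.96, 20.25 and 23.8 CPM in NSC 1, 3 and 5. It was at 79.6, 22.2 and 19.4 in LTR 1 to 3 and at 37.0, 120.1 and 57.9 in NF1 1 to 3. LTR 1 stood above LTR 2 and LTR 3, as it did for Ddit3. The NF1 difference was 1.75 ± 0.58 (adjusted p = 0.0575), called without any 1 LTR library, with no filter on low counts, and by DESeq2 (0.0151). Without NF1 2 it was 1.16 (adjusted p = 0.107).

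Sel1l, the adaptor of the ubiquitin ligase Syvn1, was at 163.7, 138.6 and 162.2 CPM in NSC 1, 3 and 5. LTR 1 to 3 had 108.8, 60.9 and 64.6, and NF1 1 to 3 had 111.9, 364.9 and 90.9. NF1 2 thus exceeded NSC while every other tumour library lay below it. The differences were -0.99 ± 0.48 in LTR (adjusted p = 0.136, and 0.0082 without NF1 2) and 0.29 ± 0.48 in NF1 (adjusted p = 0.688). Without NF1 2 the NF1 difference of Sel1l turned to -0.60 (adjusted p = 0.0983). Syvn1 itself had 130.6 CPM in NF1 2 and 37.4 to 67.7 CPM in the other 8 libraries. Its NF1 difference was 0.50, and -0.13 without NF1 2 (adjusted p = 0.355 and 0.671). Edem1, a mannosidase-like factor that marks glycoproteins for removal, measured 70.6 ± 12.1 CPM in NSC and 124.1 ± 41.7 in NF1 (0.81 ± 0.26, adjusted p = 0.0521), or 0.51 when NF1 2 was left out (adjusted p = 0.0811). Derl1 measured 98.4 ± 11.9 and 130.8 ± 13.7 CPM (adjusted p = 0.114). Derl3 was at or under 1.92 CPM everywhere, with its highest value in NF1 2, and its NF1 difference of 1.04 turned to -0.37 without that library.

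Translocon, oligosaccharyltransferase and export genes load, glycosylate and ship new chains. Of these, 0 of 7 were called in NF1 by edgeR, also at an unadjusted p under 0.05, or by DESeq2. By edgeR 23.1% of all tested genes were called in NF1, and 6020 of 15696 had an unadjusted p under 0.05. DESeq2 called 10.2% of all genes higher and 14.7% lower. Ssr1, a translocon-associated protein, was at 348.1 ± 12.6 CPM in NSC, 348.6 ± 19.2 in LTR and 356.5 ± 46.0 in NF1, with differences of 0.0021 ± 0.17 and 0.03 ± 0.17 (adjusted p = 0.993 and 0.898). Its partner Ssr3 measured 630.0 ± 73.8, 615.0 ± 82.3 and 819.7 ± 52.9 CPM, and the NF1 libraries lay above the others (adjusted p = 0.173). Sec61b, Ssr2 and Ostc, small subunits of the translocon and the sugar transferase, were highest in LTR 2 and NF1 3. Sec61b was at 151.5 and 139.8 CPM in LTR 2 and NF1 3, and at 54.7 to 89.1 CPM in the other 7 libraries. Ssr2 measured 103 ± 19.0 CPM in NSC, 158 ± 23.6 in LTR and 151 ± 54.9 in NF1 (adjusted p = 0.105 and 0.166). Without NF1 2 it was called in both (adjusted p = 0.0382 and 0.0241). Ostc measured 104.2 ± 25.3, 125.4 ± 40.4 and 140.0 ± 57.0 CPM, and Sec61a1, the pore subunit, 307.6 ± 81.5, 241.0 ± 30.3 and 280.2 ± 87.1 CPM, with no call.

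Sec24d (ENSMUSG00000039234, chr3:123267455-123365641), which loads cargo into export vesicles, fell in LTR. It was at 110.0, 105.0 and 113.6 CPM in NSC 1, 3 and 5 and 56.5, 40.4 and 49.5 in LTR 1 to 3. NF1 1, 2 and 3 had 67.9, 124.4 and 53.6. NF1 1 and NF1 3 lay below NSC and NF1 2 above it. The LTR fall was -1.17 ± 0.30 (adjusted p = 0.0155), lost without LTR 2 or LTR 3 and with the replicate block (adjusted p up to 0.0567). The NF1 difference was -0.42 ± 0.29 (adjusted p = 0.319), or -0.84 when NF1 2 was left out (adjusted p = 0.00935).

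**Figure D4:**
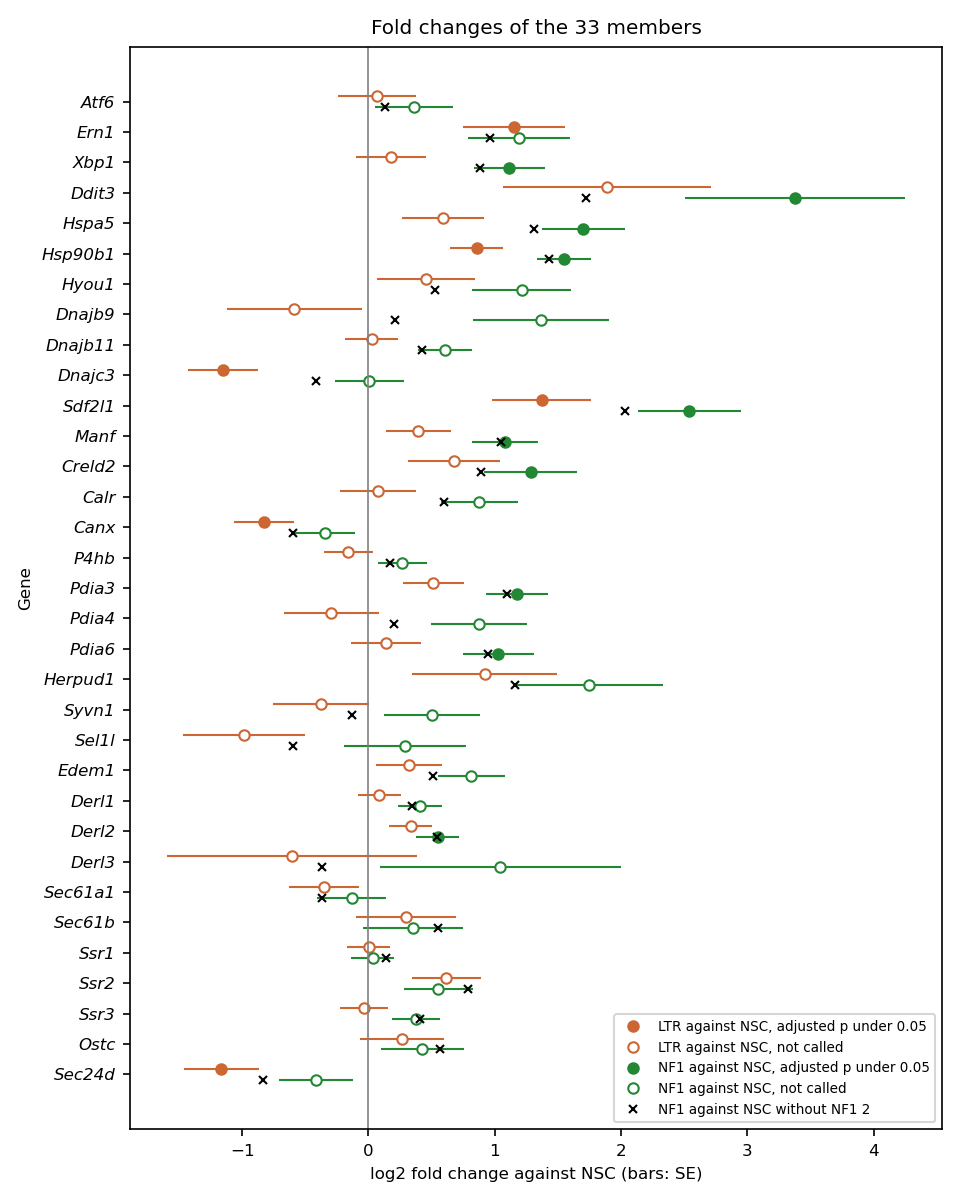
Points are log2 fold changes of the 33 genes against NSC with SE bars, for LTR (orange) and NF1 (green), filled where the adjusted p was under 0.05, and crosses give NF1 without NF1 2. Hsp90b1, Manf, Pdia3 and Derl2 hardly move when NF1 2 is left out, while Ddit3, Dnajb9, Pdia4, Hyou1, Sel1l and Derl3 shift toward or below 0.

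The cultures labelled NF1 were also set against LTR. By edgeR 0 of the 33 genes were called, and 0% of all tested genes, although 1596 of all genes and 15 of the 33 had an unadjusted p under 0.05. DESeq2 called 333 genes, 1.18% of all genes higher and 0.825% lower. Among them were Dnajb9 (adjusted p = 0.029) and Dnajc3 (adjusted p = 0.026), both higher in NF1. By edgeR without NF1 2 their differences were 0.79 and 0.73 (adjusted p = 0.157 and 0.108). The median difference was 0.69 over the 33 genes and 0.06 over all genes, and 0.29 over the 33 without NF1 2. Ddit3 turned from 1.49 to -0.18 without NF1 2. The libraries did not overlap for 11 of the 33 genes, all higher in NF1, against 7.21% of all tested genes higher and 5.24% lower. They were Xbp1, Hspa5, Hsp90b1, Dnajb9, Dnajb11, Dnajc3, Canx, P4hb, Pdia3, Pdia4 and Ssr3. Without NF1 2 these 11 still did not overlap, where 10.5% of all genes lay higher and 11.1% lower. Against NSC, 19 of the 33 lay above in all NF1 libraries and 0 below, where 18.7% and 23.7% of all genes did. Without NF1 2 there were 20 above and 4 below (Canx, Sel1l, Dnajc3 and Sec24d), where 30.8% and 36.1% of all genes did. For LTR the numbers were 8 above and 6 below, where 26.9% and 32% did.

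Culture NF1 2 was the highest of the 9 libraries for 23 of the 33 genes, and for 21 of the 31 besides Pdia4 and Hyou1, where it was the highest for 16.7% of all tested genes. NF1 3 was highest for 6, NSC 3 for 2, LTR 1 for 1 and LTR 2 for 1. For 11 of the 33, and for 9 of the 31 besides Pdia4 and Hyou1, it was above 2 times the mean of NF1 1 and NF1 3, where 22.6% of all tested genes were. Those 11 were Ddit3 (7.55 times), Derl3 (6.19), Dnajb9 (4.72), Sel1l (3.6), Hyou1 (2.86), Pdia4 (2.82), Syvn1 (2.68), Herpud1 (2.53), Sdf2l1 (2.31), Dnajc3 (2.06) and Sec24d (2.05). The median ratio was 2.53 for the 7 degradation genes, 1.97 for the 9 Hsp70 and Hsp90 chaperones and co-factors, and 0.81 for the 7 translocon, sugar transferase and export genes. Over all tested genes it was 1.1. Ssr1 was at its lowest of all 9 libraries in NF1 2, at 308 CPM.

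Markers of other cell types also differed in that culture. The 7 microglia and myeloid markers found in the table summed to 22.6 CPM in NF1 2, of which Cd68 made up 22.1, and to 2.19 to 5.00 CPM in the other 8 libraries. Tyrobp, C1qa and Cx3cr1 were at 0 in all 6 tumour libraries, while Aif1 and Csf1r were at 0.128 and 0.256 CPM in NF1 2. The 8 mural cell and fibroblast markers summed to 41.7 CPM in NF1 2, of which Rgs5 made up 38.4. They summed to 7.65 and 10.5 CPM in NF1 1 and NF1 3, 19.5 to 156 CPM in LTR and 209 to 1953 CPM in NSC. The 6 endothelial markers summed to 7.52 CPM in NF1 2 and to 1.04 to 4.13 CPM elsewhere. In NF1 2, Kdr made up 4.61 CPM, Cdh5 1.825 and Tek 0.768, and Cdh5 was at 1.681 CPM in NF1 1. Pecam1 was at 0.256 CPM in NF1 2, within its NSC range of 0.0902 to 0.402, and Cldn5 was at 0 in every library. Of the 4 plasma cell markers, Jchain was at or under 0.212 CPM in every library, Mzb1 was at most 0.224 CPM, its level in NF1 2, and Prdm1 at most 3.26 CPM, its level in LTR 1. Sdc1, also made by other cells, was at 67.4 to 72.8 CPM in NSC, 77.3 to 142.8 CPM in LTR, and 107.8, 89.6 and 116.7 CPM in NF1 1, 2 and 3. The part of these markers in the levels of NF1 2 was not tested. In bulk libraries, more cells of a type and more RNA per cell cannot be told apart.

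Between genes, levels were compared as CPM per kilobase of annotated exon. In NSC the order was led by Calr (329.7 ± 26.8 CPM per kilobase), Pdia3 (246.0 ± 18.4), P4hb (245.1 ± 23.5) and Canx (226.0 ± 27.3), of which the last 3 did not differ beyond their spread. Hsp90b1 (195 ± 22.3) and Hspa5 (185 ± 18.3) followed. In the cultures labelled NF1, Calr (606 ± 199), Hspa5 (601 ± 256), Hsp90b1 (572 ± 88.2) and Pdia3 (557 ± 70.2) led within each other's spread. Canx had rank 4 in NSC, 7 in LTR and 8 in NF1. Derl3 was the lowest in every group, at 0.208 ± 0.162 CPM per kilobase in NSC.

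Genes with and without the element were set side by side. In the cultures labelled NF1, 4 of the 9 with it rose (Hspa5, Hsp90b1, Creld2 and Pdia6), with a median of 1.03 against NSC, and 0.60 without NF1 2. Of the 17 with a window and no match 5 rose, with a median of 0.81, and 0.51 without NF1 2. In LTR, 1 of the 9 rose (Hsp90b1) and 2 fell (Canx and Dnajc3), with a median of 0.08. Outside the 33 genes, 9 tested genes carried the element, with a median of -0.30 in NF1, where 0 were higher and 4 lower. Of all tested genes, 10.1% were called higher and 13.1% lower in NF1, and 14.9% and 20.9% in LTR. The element was thus shared by genes that rose and by genes that fell. Other motifs were rare in the 26 windows: TGACGTGG was in Sec24d alone (3.85%, against 0.714% of all genes) and TGATGNAAN in Herpud1 alone (3.85%, against 4.5%).

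A further 125 genes of the same pathway were read, of which 123 were tested. In NF1, 15 were higher and 8 lower (median 0.11), and in LTR 11 were higher and 19 lower (median -0.03). All genes tested gave the shares stated above, 10.1% and 13.1% in NF1 and 14.9% and 20.9% in LTR. In NF1 the higher genes numbered 5 without NSC 1 or NSC 5, where 3.72% and 4.1% of all genes were called higher. They numbered 7 without LTR 1 (8.05% of all genes) and 8 without NF1 1 or NF1 3 (4.97% and 5.5%). The lower ones numbered 4 without NSC 1, NSC 5 or NF1 1, where 7.18%, 7.48% and 6.63% of all genes were called lower. There were 5 without NF1 3 (8.93% of all genes) and 14 without NF1 2 (24.5%). In LTR the higher ones numbered 5 without NSC 1 or NSC 5, where 6.7% and 7.35% of all genes were called higher. There were 7 without LTR 2 or LTR 3 (11.4% and 10.3% of all genes). The lower ones numbered 9 to 11 without any single NSC or LTR library, where 11.9% to 17.7% of all genes were called lower.

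Of the 15 other sensors and effectors, 5 were higher and 2 lower in NF1, and 4 higher and 4 lower in LTR. The all-gene shares were 10.1% higher and 13.1% lower in NF1, and 14.9% and 20.9% in LTR. Trib3, a pseudokinase induced through Atf4 and CHOP, was at 1.91, 1.53 and 1.82 CPM in NSC 1, 3 and 5. LTR 1 to 3 had 145.7, 29.9 and 23.7, and NF1 1 to 3 had 30.3, 96.2 and 68.4. All tumour libraries were far above NSC, and LTR 1 was again the highest LTR library. The rise was 5.24 ± 0.79 in LTR and 5.21 ± 0.79 in NF1 (adjusted p = 0.00207 and 0.00296). Chac1, an enzyme that breaks down glutathione and is induced by the same arm, rose by 4.08 in LTR and 4.40 in NF1 (adjusted p = 0.00565 and 0.00618). Creb3l1, a membrane-bound factor of collagen-secreting cells, fell by 3.48 in NF1 on the log2 scale (adjusted p = 0.0073), and by 4.64 without NF1 2 (adjusted p = 0.00016). Its LTR difference was -3.298 (adjusted p = 0.00625). Creb3l2 fell by 2.66 in LTR (adjusted p = 0.0018). Its NF1 difference was -1.597 (adjusted p = 0.0157), a call lost without NSC 1 or NF1 1. Eif2ak3 and Atf4 were named here after their values were seen. Atf4, a transcription factor of this arm, rose from 150.3 ± 3.4 CPM in NSC to 413.7 ± 122 in LTR and 453.4 ± 174 in NF1 (adjusted p = 0.00784 and 0.00799). Eif2ak3 was at 49.0 to 67.2 CPM in NSC. Its LTR libraries had 18.1 to 23.7 CPM, and NF1 1, 2 and 3 had 28.3, 91.2 and 22.7 (adjusted p = 0.0445 in LTR and 0.749 in NF1).

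Of the 35 other folding factors tested, 4 were higher and 3 lower in NF1, and 3 higher and 3 lower in LTR. For this list and those below, the all-gene shares were 10.1% higher and 13.1% lower in NF1, and 14.9% and 20.9% in LTR. Ero1a (Ero1l in the table), the oxidase that recharges disulfide isomerases, was at 33.6, 41.5 and 29.95 CPM in NSC 1, 3 and 5. NF1 1 to 3 had 159, 374 and 117 CPM, a rise of 2.63 (adjusted p = 0.00543), or 1.99 when NF1 2 was left out (adjusted p = 0.00158). Ero1a also rose in LTR, by 1.976 (adjusted p = 0.0105). Both calls were lost with the replicate block (adjusted p = 0.064 in NF1 and 0.0743 in LTR). Fkbp10, a prolyl isomerase of collagen folding, fell by 3.25 in NF1 and fell by 2.34 in LTR on the log2 scale (adjusted p = 0.00203 and 0.00415). Of the 22 other degradation genes, 1 was higher and 1 lower in NF1, and 2 higher and 6 lower in LTR, with Ngly1, which strips sugar chains, lower in both (adjusted p = 0.00446 in LTR and 0.013 in NF1, the latter lost without NSC 5 or NF1 1). Of the 30 other translocon, signal peptidase and sugar transferase genes, 3 were higher and 1 lower in NF1, and 2 of each in LTR. Sec11c, a signal peptidase subunit, rose from 32.0 ± 1.9 CPM to 79.1 ± 9.45 in LTR and 167 ± 48.9 in NF1 (adjusted p = 0.00326 and 0.00067). Of the 21 other export genes, 2 were higher and 1 lower in NF1, and 0 higher and 4 lower in LTR. The coat subunit genes Sec23a and Sec24a fell by 1.48 and 1.42 in LTR on the log2 scale (adjusted p = 0.00434 and 0.00511). Their NF1 differences were -0.6419 and -1.014 (adjusted p = 0.109 and 0.0256). The NF1 call of Sec24a was lost without any single NSC library, NF1 1 or NF1 3, and with the replicate block.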

How the data were processed

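RNA from 9 mouse cultures (3 NSC, 3 LTR, 3 NF1) was sequenced from NEBNext Ultra libraries. The deposited values are raw read counts per gene. Per the submitters' processing notes the tools were HTSeq, STAR 2.5.2a and DESeq2 1.8.2 on GRCm38 (mm10). The sources used here do not give the counting settings. The library kit does not keep strand, so reads of overlapping genes on opposite strands cannot be told apart. The 33 genes and all lists were chosen with earlier results of these data known. All of the 33 are named, and of the 125 other ER genes those named were among the 3 with the smallest adjusted p in their list and comparison, besides Eif2ak3, Atf4 and Ero1b, which were named after their values were seen.

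Counts were filtered with filterByExpr (minimum count 10), scaled by TMM and tested with edgeR 4.0.16 in R 4.3.3, by the quasi-likelihood test in 1 model of 3 groups, with Benjamini-Hochberg adjustment over 15696 genes. SEs were derived from the fold change and the F statistic. The script was tested on simulated data. Alternatives were DESeq2 1.42.0, its size factors, library totals, no filter, a replicate block and leaving out each library. Promoter windows are from RefSeq (GRCm38.p6) and gene positions from GENCODE M21. Protein sequences were not used here. One marker of the neural stem cell list is not reported here.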

Additional observations from a re-analysis of the deposited data

Results flagged for a closer look

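Pdia4, a protein disulfide isomerase, stood on opposite sides of NSC in the tumour groups. All 3 LTR libraries (191.9, 241.2 and 217.9 CPM) lay below the NSC libraries (247.8 to 279.4 CPM), and all 3 NF1 libraries (283.6, 854.8 and 323.1 CPM) lay above them. The difference of NF1 from LTR was 1.167 on the log2 scale, with an adjusted p of 0.384 by edgeR's quasi-likelihood test, and 0.49 without NF1 2 (adjusted p = 0.432). Pdia4 was picked for its level in NF1 2, so these values are a description.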

How the results depend on the processing

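No called difference of the 33 genes changed sign under the alternatives run. Differences that were not called did so for 12 genes in LTR against NSC, 7 in NF1 against NSC and 7 in NF1 against LTR. Without NF1 2 those in NF1 against NSC were Derl3, Dnajc3, Sel1l and Syvn1, and those in NF1 against LTR were Ddit3, Ern1, Sec61a1 and Ssr2. The non-overlap counts without NF1 2 were added after seeing the data. Same-numbered libraries had correlations of -0.185 to 0.121 in their deviations from group means. With 3 cultures a group these values cannot decide whether the replicate numbers pair the cultures. With the numbers as a replicate block, LTR against NSC gave 3477 genes of all, 1 of the 33 higher, 1 lower, and 3 other ER genes higher and 12 lower. With the same replicate block, NF1 against NSC gave 1942 genes, 3 of the 33 higher, and 3 other ER genes higher and 4 lower. For NF1 against LTR, DESeq2 called 333 genes (1.18% of all higher and 0.825% lower), with 2 of the 33 and 1 other ER gene higher. Leaving out the filter on low counts gave 52 genes.

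Leaving out 1 library at a time, LTR against NSC gave 3281 to 7640 genes, 0 to 5 of the 33 higher, 1 to 5 lower, 5 to 15 other ER genes higher and 9 to 25 lower. NF1 against NSC gave 1752 to 6900 genes, 4 to 16 of the 33 higher, 0 to 2 lower, 5 to 20 other ER genes higher and 4 to 14 lower. NF1 against LTR gave 0 to 34 genes and 0 of the 33. A group holds 3 cultures, lane and cell type cannot be told apart against NSC, and genes near the threshold changed sides when 1 library was left out. Depth limits Derl3, which had 4 to 60 counts per library.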
